A study of Mus musculus with 12 samples.

Results

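Messenger RNA of the proteasome subunit genes was measured with Affymetrix arrays in whole lung, using a separate one-colour array for each of 12 female mice that were 10 weeks old. The members were all genes whose symbol in the platform annotation is Psma, Psmb, Psmc, Psmd, Psme or Psmg followed by a number, read from probes paired with 1 symbol and represented by the probe with the highest mean. They numbered 46 of the 22180 genes measured in this way. The mice were wild type or lacked both copies of Zmpste24 (Zmpste24-/-), and their lungs were taken either from intact animals, here called baseline, or from animals that had been mechanically ventilated. Each of the 4 combinations had 3 mice. The ventilator was set to 15 cmH2O of inspiratory pressure, zero end-expiratory pressure, 100 breaths each minute and room air (oxygen fraction 0.21) for 2.5 hours. ZMPSTE24 is the metalloprotease that processes the precursor of lamin A, and its loss is a model of accelerated ageing. The allele is not restricted to a cell type, so a difference between genotypes can arise in the lung or outside it. The sources used here do not state the strain or whether the genotypes were littermates. Baseline mice are described only as intact, so an effect of ventilation and one of the handling around it cannot be told apart.

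The proteasome is the barrel-shaped protease that degrades proteins tagged with ubiquitin. Its core particle is built from outer rings of alpha subunits (Psma genes), which gate the entrance, and inner rings of beta subunits (Psmb genes), of which Psmb5, Psmb6 and Psmb7 carry the active sites. In cells exposed to interferon and in lymphoid cells, Psmb8, Psmb9 and Psmb10 take the places of Psmb5, Psmb6 and Psmb7 to form the immunoproteasome, which favours the cutting of peptides for MHC class I. The regulatory particle caps the core: its ATPases (Psmc genes) unfold the substrate and thread it inwards, and its non-ATPase subunits (Psmd genes) bind and remove ubiquitin. Psme genes encode alternative activators of the core, and Psmg genes encode chaperones of its assembly.

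The labels were checked with the targeted gene. Wild type arrays read 9.0, 9.02 and 8.50 for Zmpste24 on the log2 scale at baseline and 8.50, 9.28 and 8.91 after ventilation. Zmpste24-/- arrays read 5.91, 5.31 and 5.44 at baseline and 5.01, 5.73 and 5.43 after ventilation, below every wild type array. Array medians over genes lay between 5.989 and 6.082. Arrays of one group correlated at 0.991 to 0.9958 across genes, which are not independent replicates, and arrays of different groups at 0.9734 to 0.9906. The summed linear level of 10 lung epithelial, endothelial and matrix markers lay between 37871 and 40857 on every array. Single libraries stood apart in markers of other tissues. Wild type baseline array 2 carried the highest summed level of 5 liver genes, at 4361, against 463 for the lowest array of that group and at most 725 in the other groups. The highest sum of 4 muscle markers, 3902, was on wild type ventilated array 1, against at most 2145 in the other groups, and that of 3 adipocyte markers, 848, on Zmpste24-/- baseline array 1, against at most 259. Each result below is also given without these arrays where that ends its call. Precision was limited by the 3 arrays per group.

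The members comprised 7 alpha ring genes, 7 constitutive beta ring genes, the 3 immunoproteasome genes, the thymus-specific Psmb11, 6 ATPases and 11 non-ATPase subunits of the regulatory particle, 3 chaperones of the regulatory particle (Psmd5, Psmd9 and Psmd10), 4 activators and 4 core assembly chaperones. Psma4, the remaining somatic alpha subunit, was left out because its probes are paired with more than 1 symbol. Probe means of the members lay between 4.44 and 9.79 with a median of 8.14, and 42 of the 46 were at or over the median of all genes, 6.05. The 4 below it were Psma5 at 4.44, Psmb11 at 4.63, the testis-enriched Psma8 at 4.86 and Psmg4 at 5.06. A difference in these 4 is measured near the low end of the array's range, and none of them passed the test in any comparison.

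Promoters were read from RefSeq (build GRCm38.p6) as windows from 250 bases before to 50 bases after each listed start, and 38 of the 46 members had 41 such windows. The windows printed here belong to 5 of the 6 members whose RNA differed after ventilation in both genotypes (Psmb9, Psmc6, Psmd11, Psmd12 and Psme4) and to Psmb8, the immunoproteasome gene that lies beside Psmb9 in the MHC region. Capitals mark matches, on either strand, to the antioxidant response element core TGACNNNGC, the heat shock element unit GAANNTTC, the interferon gamma activated site TTCNNNGAA or the interferon response element core GAAANNGAA.
The first pair are immunoproteasome genes, Psmb9 at chr17:34187281-34187580 on the minus strand and Psmb8 at chr17:34197945-34198244 on the plus strand.
Psmb9: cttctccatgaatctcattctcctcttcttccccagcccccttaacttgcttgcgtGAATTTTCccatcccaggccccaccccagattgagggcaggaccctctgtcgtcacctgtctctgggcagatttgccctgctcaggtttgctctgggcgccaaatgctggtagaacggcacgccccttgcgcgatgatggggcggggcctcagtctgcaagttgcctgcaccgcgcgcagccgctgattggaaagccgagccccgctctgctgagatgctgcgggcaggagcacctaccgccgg
Psmb8: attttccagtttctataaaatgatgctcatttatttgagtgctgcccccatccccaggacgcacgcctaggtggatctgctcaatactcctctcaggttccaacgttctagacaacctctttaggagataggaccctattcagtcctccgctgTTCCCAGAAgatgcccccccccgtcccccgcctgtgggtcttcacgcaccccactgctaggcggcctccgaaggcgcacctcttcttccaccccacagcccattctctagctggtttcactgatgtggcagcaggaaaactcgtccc
The next are regulatory particle subunits and an activator, all on the plus strand: Psmc6 at chr14:45329574-45329873, Psmd11 at chr11:80428365-80428664, Psmd12 at chr11:107479278-107479577 and Psme4 at chr11:30771525-30771824.
Psmc6: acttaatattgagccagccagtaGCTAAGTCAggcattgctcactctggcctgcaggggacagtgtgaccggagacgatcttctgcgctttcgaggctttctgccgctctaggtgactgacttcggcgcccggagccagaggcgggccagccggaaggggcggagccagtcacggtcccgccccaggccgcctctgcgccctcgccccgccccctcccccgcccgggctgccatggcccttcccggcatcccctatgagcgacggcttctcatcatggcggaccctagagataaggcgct
Psmd11: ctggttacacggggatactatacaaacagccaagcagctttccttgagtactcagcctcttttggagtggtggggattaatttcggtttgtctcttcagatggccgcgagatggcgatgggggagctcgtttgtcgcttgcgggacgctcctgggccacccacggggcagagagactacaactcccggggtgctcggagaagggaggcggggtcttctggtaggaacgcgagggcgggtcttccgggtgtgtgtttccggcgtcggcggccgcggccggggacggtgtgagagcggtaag
Psmd12: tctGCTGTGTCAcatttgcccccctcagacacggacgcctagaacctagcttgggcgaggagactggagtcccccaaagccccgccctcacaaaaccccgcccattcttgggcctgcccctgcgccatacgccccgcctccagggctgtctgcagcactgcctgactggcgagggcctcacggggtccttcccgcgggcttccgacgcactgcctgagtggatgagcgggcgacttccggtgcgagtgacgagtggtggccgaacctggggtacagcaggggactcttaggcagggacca
Psme4: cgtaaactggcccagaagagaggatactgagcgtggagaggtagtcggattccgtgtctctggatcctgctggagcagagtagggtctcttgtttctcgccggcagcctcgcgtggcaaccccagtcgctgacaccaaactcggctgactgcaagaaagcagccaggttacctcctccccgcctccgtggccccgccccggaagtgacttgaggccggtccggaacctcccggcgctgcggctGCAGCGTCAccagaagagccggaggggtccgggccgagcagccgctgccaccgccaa
The capitals are a heat shock unit 194 bases before the start in Psmb9, an interferon gamma activated site 97 bases before it in Psmb8, and antioxidant response cores 227, 247 and 7 bases before it in Psmc6, Psmd12 and Psme4. Psmd11 had no match to these letters in its window. Nor had Psmb10, the remaining immunoproteasome gene and the member of the 6 whose window is not printed. The motifs were searched separately on both strands, so matches to different motifs could overlap. The antioxidant core was found in 6 of the 41 member windows (14.6%) and in 12.4% of all 32851 windows of this length, and the heat shock unit in 2 (4.88%) against 7.86%. The interferon gamma site was found in 3 member windows (7.32%) against 8.3% of all windows, the interferon response core in 7 (17.1%) against 8.56%, and CCAAT in 14 (34.1%) against 37.4%. These are shares of windows that hold the letters, not measured binding. Psmb9 and Tap1, which encodes a subunit of the peptide transporter of class I presentation, start on opposite strands 226 bases apart, and Psmb8 starts 10865 bases from Psmb9.

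In wild type lungs ventilation was compared with baseline by limma, with p-values adjusted over all 22180 genes and a threshold of 0.05. RNA of Psmd11, Psmd12, Psmc6, Psme4 and Psmg1 rose 1.28-fold to 1.46-fold, and RNA of Psmb9 and Psmb10 fell to 0.704 and 0.77 of its baseline level. These 7 members made up 15.2% of the 46, against 7.2% of all genes called in this comparison and 12.1% of the genes at or over the median level, among which 16.7% of the members were called. In Zmpste24-/- lungs 13 members passed (28.3%), 9 higher and 4 lower, against 16.4% of all genes and 28.5% of those at or over the median level, among which 31.0% of the members were called. The share of members called was thus near that of other well-measured genes. Members passing in both genotypes were Psmc6, Psmd11, Psmd12 and Psme4, which rose, and Psmb9 and Psmb10, which fell. Psmg1 passed in wild type lungs alone, 7 members in Zmpste24-/- lungs alone and 32 in neither, and none of the 46 passed the test of the difference between the genotypes. Calls in 1 direction made up 3.67% (higher) and 3.53% (lower) of all genes in wild type and 8.89% and 7.52% in Zmpste24-/- lungs. Without wild type ventilated array 3 the wild type count was 3, and without wild type baseline array 2 or 3 it was 4. The Zmpste24-/- count was 8 without Zmpste24-/- baseline array 2 or ventilated array 3. The median log2 difference over the members was 0.12 in wild type and 0.08 in Zmpste24-/- lungs, against -0.01 over all genes in each. With quantile normalization the split in Zmpste24-/- lungs was 5 higher and 5 lower, and with array medians subtracted it was 11 higher and 4 lower.

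**Figure D1:**
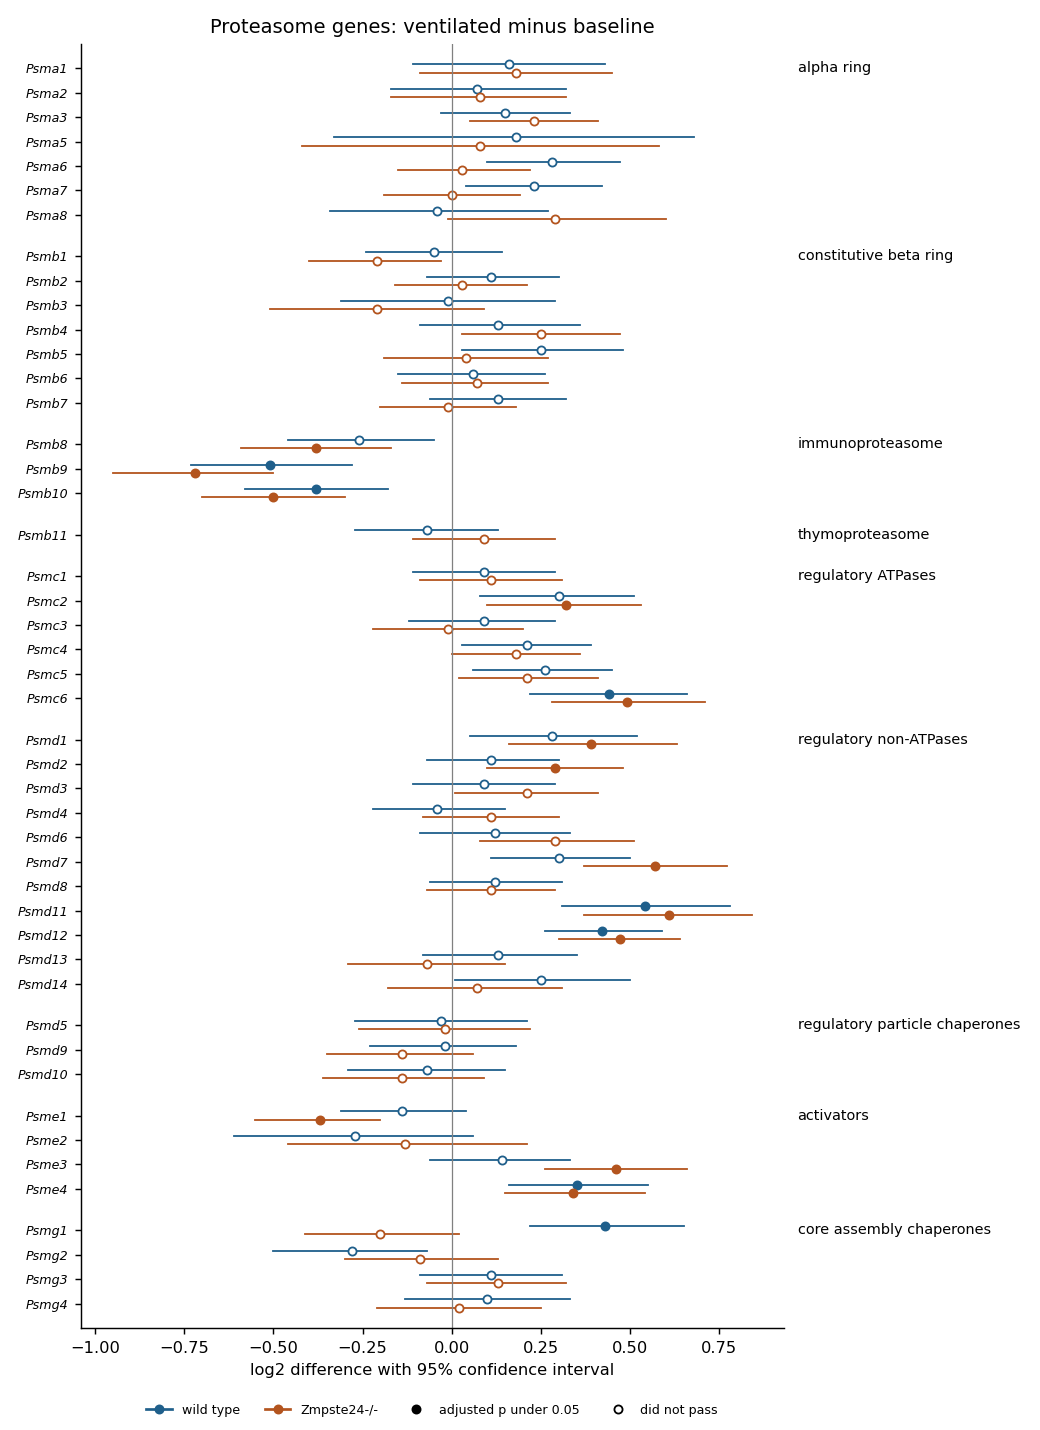
Log2 difference, ventilated minus baseline, of each of the 46 proteasome genes by role, with its 95% confidence interval from limma, in wild type and Zmpste24-/- lungs (3 arrays per group). Filled points passed an adjusted p of 0.05: the filled points below 0 are immunoproteasome genes and Psme1, and those above 0 are regulatory particle subunits, Psme3, Psme4 and Psmg1.

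All 3 immunoproteasome genes were lower after ventilation in Zmpste24-/- lungs, and Psmb9 and Psmb10 were lower in wild type lungs as well. Psmb9, the immunoproteasome counterpart of Psmb6, read 7.41, 7.43 and 7.47 in wild type lungs at baseline and 6.81, 6.84 and 7.13 after ventilation. The Zmpste24-/- arrays read 7.01, 6.96 and 7.09 at baseline and 6.47, 6.13 and 6.30 after ventilation. Every ventilated array was below every baseline array of its genotype, and the Zmpste24-/- baseline arrays lay within the range of the wild type ventilated ones. The log2 difference was -0.51 ± 0.10 (SE, limma adjusted p = 0.00984) in wild type and -0.72 ± 0.10 (limma adjusted p = 0.00037) in Zmpste24-/- lungs, where the level fell to 0.607 of baseline. Both calls held in each of the 12 fits that left out 1 array.

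Psmb10, the counterpart of Psmb7, read 8.34, 8.51 and 8.62 at baseline and 8.02, 8.19 and 8.12 after ventilation in wild type lungs. The Zmpste24-/- arrays read 8.18, 8.31 and 8.25 at baseline and 7.86, 7.75 and 7.62 after ventilation. Neither genotype had overlapping groups, and the differences were -0.38 ± 0.09 (limma adjusted p = 0.0269) and -0.50 ± 0.09 (limma adjusted p = 0.00225). The wild type call ended without baseline array 2 or 3 or ventilated array 1 or 3, with limma adjusted p between 0.0749 and 0.0939. The Zmpste24-/- call held without any single array. With the 2 compared groups fitted alone the wild type call also ended (0.0791).

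Psmb8, the counterpart of Psmb5, read 8.08, 8.01 and 8.20 at baseline and 7.69, 7.80 and 8.04 after ventilation in wild type lungs, where the groups overlapped and the difference of -0.26 ± 0.10 did not pass (limma adjusted p = 0.145). In Zmpste24-/- lungs it read 7.89, 8.04 and 7.93 at baseline and 7.59, 7.62 and 7.51 after ventilation. There the groups were separate and the difference of -0.38 ± 0.10 passed (limma adjusted p = 0.016). Without Zmpste24-/- baseline array 2 or ventilated array 3 the limma adjusted p was 0.0657 or 0.0678. The difference between the genotypes' responses was -0.12, -0.21 and -0.13 for Psmb8, Psmb9 and Psmb10, and none of these passed (limma adjusted p 0.802, 0.642 and 0.786).

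No gene of the alpha ring or the constitutive beta ring was called. None of these 14 measured genes, here called the core, passed in either ventilation comparison. Their median difference was 0.13 in wild type and 0.05 in Zmpste24-/- lungs. They include Psma5 and the testis-enriched Psma8, which were read near the low end of the array's range, and Psma4 is missing from them. Psmb5, the chymotrypsin-like active site, read 7.53, 7.56 and 7.82 at baseline and 7.87, 7.83 and 7.96 after ventilation in wild type lungs, a difference of 0.25 ± 0.11 (limma adjusted p = 0.188). Zmpste24-/- lungs gave 8.10, 7.78 and 7.95 for Psmb5 at baseline and 8.13, 7.89 and 7.93 after ventilation, where the groups overlapped. Psmb6, the caspase-like active site, differed by 0.06 ± 0.09 and 0.07 ± 0.09 in wild type and Zmpste24-/- lungs, and Psmb7, the trypsin-like active site, by 0.13 ± 0.09 and -0.01 ± 0.09. A difference that misses the threshold is not shown to be 0. In the alpha ring the largest wild type difference was that of Psma6, 0.28 ± 0.09 (limma adjusted p = 0.0656), whose groups did not overlap. Psma6 passed in wild type lungs with genes under the median level left out or with quantile normalization (limma adjusted p 0.0418 and 0.0419). In Zmpste24-/- lungs Psma3 was called higher with that filter or with array medians subtracted (0.0464 and 0.0298), and Psmb1 lower with quantile normalization (0.0243).

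Each immunoproteasome gene was then set against the constitutive gene it replaces on the same array. Probes of different genes are not on a common scale, so only changes in the pair difference are read. Psmb9 minus Psmb6 was -0.71, -0.94 and -0.94 in wild type baseline, -1.52, -1.45 and -1.33 in wild type ventilated, -1.52, -1.36 and -1.37 in Zmpste24-/- baseline and -2.09, -2.39 and -2.15 in Zmpste24-/- ventilated lungs. Its change with ventilation was -0.56 in wild type and -0.79 in Zmpste24-/- lungs. Psmb8 minus Psmb5 changed by -0.51 and -0.42, and Psmb10 minus Psmb7 by -0.50 in each genotype. In wild type lungs the change of the Psmb8 pair lay about as much in Psmb5 (0.25) as in Psmb8 (-0.26), and neither gene passed alone. The mean change over both genotypes was tested by exact two-sided permutation, which shuffled the condition within genotype, with 400 relabellings. This permutation test gave the smallest p it allows, 0.005, for all 3 pairs, or 0.006 after Benjamini-Hochberg adjustment over 6 tests. Ventilated lungs had the lower pair difference on every array of its genotype in all 3 pairs. The pairs share their 12 arrays and are not independent of each other, nor of the single-gene results above.

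**Figure D2:**
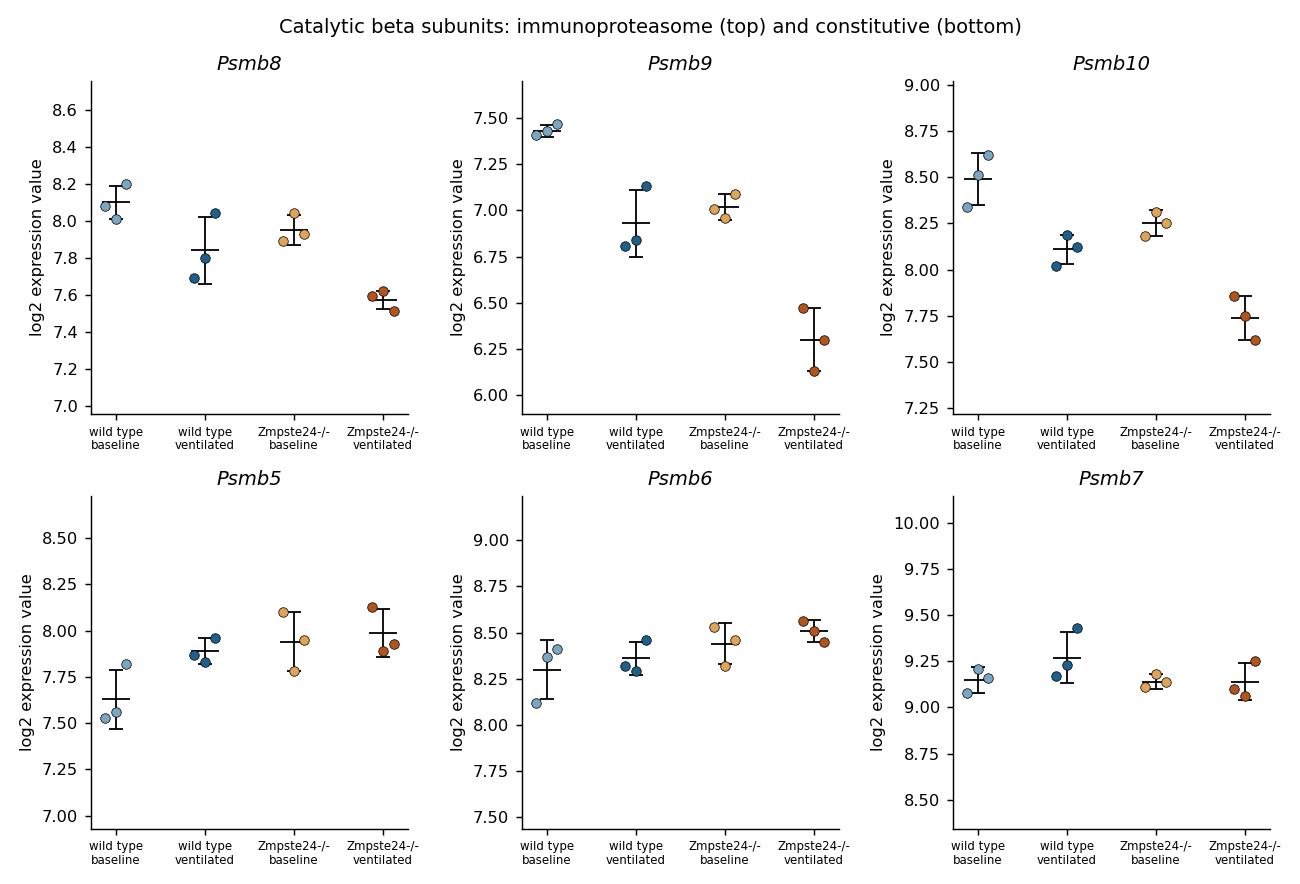
Log2 level on each array of Psmb8, Psmb9 and Psmb10 and of the constitutive active-site genes Psmb5, Psmb6 and Psmb7, in the 4 groups (points, 1 array each, with group means). Bars show the standard deviation within each group. Psmb9 steps down from 7.41 to 7.47 in wild type baseline lungs to 6.13 to 6.47 in Zmpste24-/- ventilated lungs, while Psmb6 stays between 8.12 and 8.56.

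Markers of immune cells also differed between the groups, not all of them in the direction of the immunoproteasome genes. Summed over 10 T and NK cell markers, the linear level was 1590 to 1997 in wild type baseline, 1201 to 1444 in wild type ventilated, 762 to 990 in Zmpste24-/- baseline and 704 to 765 in Zmpste24-/- ventilated lungs. Of these markers 3 were called lower after ventilation in wild type and 4 in Zmpste24-/- lungs, and 8 and 9 were lower in Zmpste24-/- than in wild type lungs at baseline and after ventilation. With 1 array left out these counts lay at 1 to 3, 0 to 5, 7 to 9 and 8 to 9. The reported counts are 30%, 40%, 80% and 90% of the list. In the same comparisons 3.53%, 7.52%, 4.11% and 6.08% of all genes were called lower. Of genes at or over the median level it was 6.01%, 12.6%, 6.94% and 9.4%. The sums of 4 B cell markers were 1427 to 2022, 907 to 1615, 876 to 1115 and 543 to 755 in the same order of groups. Dendritic cell markers summed to 441 to 467, 411 to 470, 290 to 385 and 316 to 329, and 8 macrophage and monocyte markers to 3685 to 4564, 2989 to 3877, 3622 to 4091 and 3885 to 4962. The sums of 6 neutrophil markers were higher after ventilation in each genotype, at 689 to 1182, 1222 to 1909, 892 to 1533 and 2894 to 3205. Called higher after ventilation were 2 of the 6 in wild type and 6 in Zmpste24-/- lungs. Between genotypes 1 was higher in Zmpste24-/- lungs at baseline and 4 after ventilation. These are 33.3%, 100%, 16.7% and 66.7% of the list, against 3.67%, 8.89%, 2.2% and 4.72% of all genes called higher. Of genes at or over the median level it was 6.12%, 15.9%, 3.62% and 7.79%. Across the 4 comparisons, in the order above, 0, 2, 3 and 4 of the 4 B cell markers were called lower. Among the 8 macrophage and monocyte markers it was 1, 0, 2 and 0, and 1 was called higher in ventilated Zmpste24-/- than in ventilated wild type lungs. Lymphocytes are known to express the immunoproteasome constitutively, and the part of these cells in the decreases was not tested. In whole lung, fewer cells of a type and less RNA per cell cannot be told apart.

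Most of the members that rose belong to the regulatory particle. Of its 17 subunits, 3 passed as higher in wild type and 7 in Zmpste24-/- lungs and none as lower, with positive estimates in 16 and 15 of them and a median difference of 0.21 in each genotype. The count of 7 was 4 with quantile normalization or without Zmpste24-/- baseline array 2 or ventilated array 3. Among all genes at or over the median level, 6.12% were called higher in wild type and 15.9% in Zmpste24-/- lungs. Psmd11, a lid subunit, read 8.95, 8.84 and 8.72 at baseline and 9.40, 9.32 and 9.41 after ventilation in wild type lungs. Zmpste24-/- lungs gave 9.15, 8.70 and 8.92 at baseline and 9.43, 9.62 and 9.53 after ventilation. The ventilated arrays were the higher ones in each genotype, by 0.54 ± 0.11 (1.46-fold, limma adjusted p = 0.00845) and 0.61 ± 0.11 (1.52-fold, limma adjusted p = 0.00174).

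Psmd12, another lid subunit, rose from 8.43, 8.21 and 8.33 to 8.71, 8.74 and 8.78 in wild type lungs and from 8.40, 8.42 and 8.41 to 8.80, 8.90 and 8.94 in Zmpste24-/- lungs. The differences were 0.42 ± 0.08 (limma adjusted p = 0.00513) and 0.47 ± 0.08 (limma adjusted p = 0.00102). As for Psmd11, both calls held without any single array. Psmc6, an ATPase of the base, rose from 8.75, 8.66 and 8.44 to 8.92, 9.08 and 9.18 in wild type lungs and from 8.91, 8.71 and 8.76 to 9.24, 9.38 and 9.24 in Zmpste24-/- lungs, by 0.44 ± 0.10 (limma adjusted p = 0.0185) and 0.49 ± 0.10 (limma adjusted p = 0.00437). Its groups did not overlap in either genotype. The wild type call ended without baseline array 3 or ventilated array 2 or 3 (limma adjusted p 0.0688, 0.0514 and 0.0894), and the Zmpste24-/- call held without any single array. With the 2 compared groups fitted alone the wild type p was 0.0661.

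Psmd7, the non-catalytic partner of the deubiquitinase Psmd14, read 9.05, 9.13 and 8.88 at baseline and 9.24, 9.46 and 9.26 after ventilation in wild type lungs, a difference of 0.30 ± 0.09 that did not pass (limma adjusted p = 0.0649). It rose in Zmpste24-/- lungs from 9.06, 8.90 and 8.96 to 9.48, 9.55 and 9.59, by 0.57 ± 0.09 (limma adjusted p = 0.000816), and no single array was needed for the call. The 2 increases did not differ by the interaction test (0.27 ± 0.13, limma adjusted p = 0.454). Psmd14 itself differed by 0.25 ± 0.11 and 0.07 ± 0.11, with overlapping groups.

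The large scaffold subunits and Psmc2 passed in Zmpste24-/- lungs by smaller margins. Psmd1 rose from 9.01, 8.64 and 8.97 to 9.29, 9.17 and 9.34 (0.39 ± 0.11, limma adjusted p = 0.0236), and Psmd2 from 8.81, 8.70 and 8.69 to 8.90, 9.04 and 9.12 (0.29 ± 0.09, limma adjusted p = 0.0341). A further probe, which the annotation pairs with both Armc9 and Psmd1, was left out. Psmc2, an ATPase, rose from 8.67, 8.36 and 8.60 to 8.87, 8.82 and 8.87 (0.32 ± 0.10, limma adjusted p = 0.046). In wild type lungs the same 3 genes differed by 0.28, 0.11 and 0.30 and did not pass. These calls rested on single arrays: that of Psmd1 ended without Zmpste24-/- baseline array 2 or ventilated array 1 or 3 (limma adjusted p 0.106, 0.0647 and 0.0931), and that of Psmd2 without baseline array 2 or 3 or ventilated array 2 or 3 (0.1, 0.113, 0.102 and 0.146). Psmc2 lost its call without any 1 of 9 arrays, namely all 3 of the Zmpste24-/- ventilated group, Zmpste24-/- baseline arrays 2 and 3, all 3 wild type baseline arrays and wild type ventilated array 2, with limma adjusted p between 0.0501 and 0.192. Its second, dimmer probe (mean 5.45) differed by -0.06 in wild type and 0.28 in Zmpste24-/- lungs, so the probes disagreed in wild type lungs. Quantile normalization ended all 3 calls (limma adjusted p 0.0905, 0.148 and 0.18 for Psmd1, Psmd2 and Psmc2), and the replicate number as a block ended those of Psmd2 and Psmc2 (0.0533 and 0.0523). That of Psmc2 also ended with the 2 compared groups fitted alone (0.0503).

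**Figure D3:**
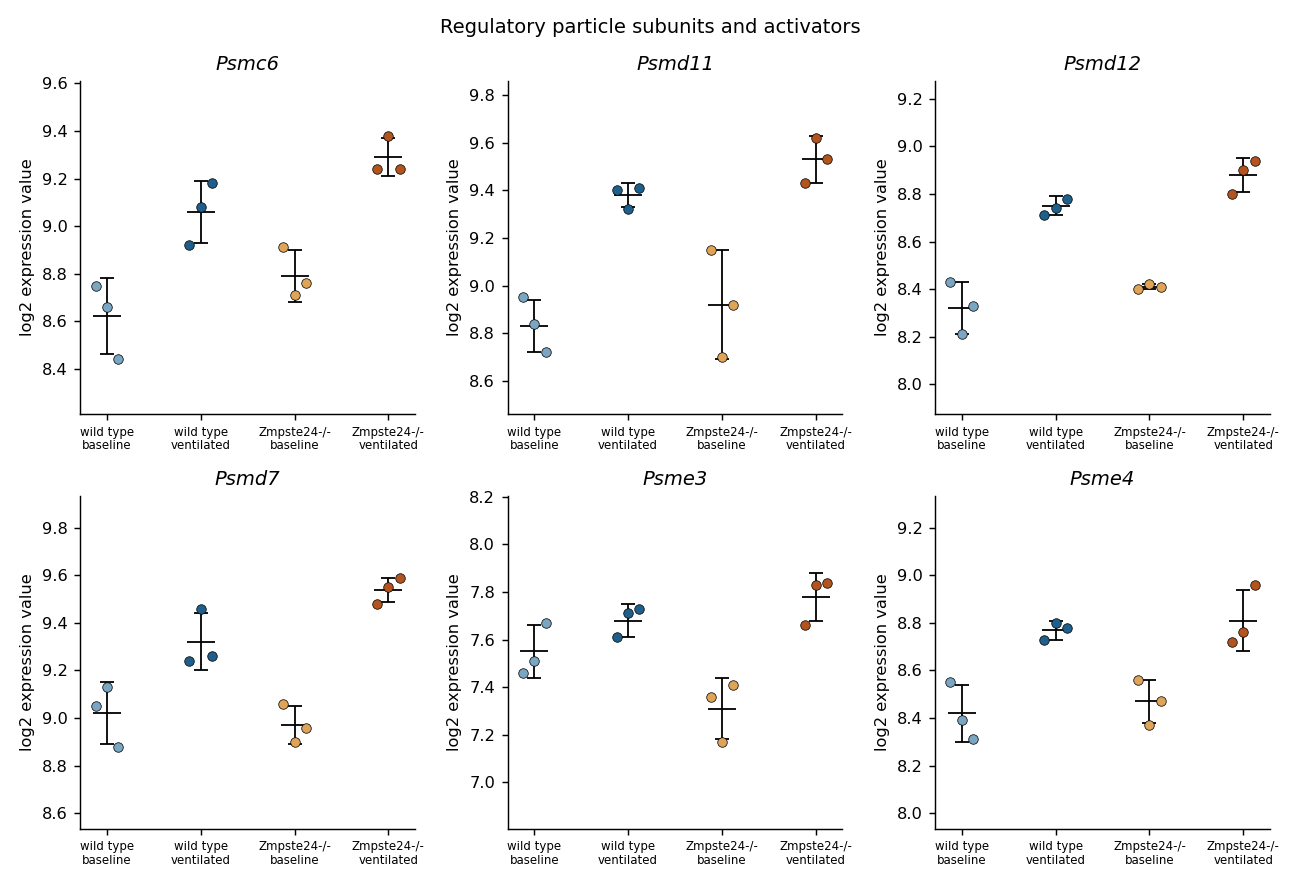
Log2 level on each array of 6 members that rose with ventilation in at least 1 genotype (Psmc6, Psmd11, Psmd12, Psmd7, Psme3 and Psme4), in the 4 groups (points, 1 array each, with group means). Bars show the standard deviation within each group. Psmd11 and Psmd12 stand higher on all ventilated arrays than on any baseline array of the same genotype, from 8.70 to 9.15 up to 9.32 to 9.62 for Psmd11.

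The chaperones that assemble the regulatory particle gave no call: Psmd5, Psmd9 and Psmd10 differed by -0.03, -0.02 and -0.07 in wild type and by -0.02, -0.14 and -0.14 in Zmpste24-/- lungs. Among the activators, Psme4 (PA200) rose from 8.55, 8.39 and 8.31 to 8.73, 8.80 and 8.78 in wild type and from 8.56, 8.37 and 8.47 to 8.72, 8.76 and 8.96 in Zmpste24-/- lungs. The increases were 0.35 ± 0.09 (limma adjusted p = 0.0331) and 0.34 ± 0.09 (limma adjusted p = 0.02). Without any 1 of wild type baseline arrays 2 and 3 and the 3 wild type ventilated arrays the first had a limma adjusted p of 0.0585 to 0.108, and without Zmpste24-/- baseline array 2 or 3 or ventilated array 3 the second had 0.0821, 0.0576 and 0.101. With the replicate number as a block or the 2 compared groups fitted alone the first did not pass (limma adjusted p 0.0525 and 0.0771), nor did the second with quantile normalization (0.0661).

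Psme3 (PA28 gamma), the nuclear activator, rose in Zmpste24-/- lungs from 7.36, 7.17 and 7.41 to 7.66, 7.83 and 7.84, by 0.46 ± 0.09 (limma adjusted p = 0.00354). In wild type lungs, where it read 7.46, 7.51 and 7.67 at baseline and 7.61, 7.71 and 7.73 after ventilation, the groups overlapped and the difference was 0.14 ± 0.09 (limma adjusted p = 0.457). Psme1 (PA28 alpha), the interferon-inducible activator that pairs with Psme2, fell in Zmpste24-/- lungs from 9.90, 9.75 and 9.78 to 9.54, 9.40 and 9.37, by 0.37 on the log2 scale (SE 0.08, limma adjusted p = 0.00644). In wild type lungs it read 9.40, 9.53 and 9.50 at baseline and 9.39, 9.27 and 9.38 after ventilation, a difference of -0.14 (limma adjusted p = 0.391). The calls for Psme3 and Psme1 in Zmpste24-/- lungs held without any single array, and neither response differed between genotypes by test (0.33 ± 0.13, limma adjusted p = 0.337 and -0.24 ± 0.12, limma adjusted p = 0.46). Psme2 differed by -0.27 ± 0.16 and -0.13 ± 0.16 and did not pass. A further probe, which the annotation pairs with Psme2 and 2 other symbols, was left out, so its value is uncertain.

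Psmg1, a chaperone of alpha ring assembly, was the one member whose estimates had opposite signs with a call in one genotype. It read 6.13, 6.12 and 6.26 in wild type baseline and 6.54, 6.63 and 6.64 in wild type ventilated lungs, an increase of 0.43 ± 0.10 (limma adjusted p = 0.0162). In Zmpste24-/- lungs it read 6.74, 6.44 and 6.45 at baseline and 6.29, 6.49 and 6.26 after ventilation, with overlapping groups and a difference of -0.20 ± 0.10 (limma adjusted p = 0.222). The difference between the responses was -0.63 ± 0.14 (limma adjusted p = 0.075), the largest among the members, and it passed at 0.0463 when genes under the median level were left out before the adjustment. The wild type call ended without baseline array 1 or 2 or ventilated array 3 (limma adjusted p 0.0513, 0.0572 and 0.0664). The other assembly chaperones, Psmg2, Psmg3 and Psmg4, differed by -0.28, 0.11 and 0.10 in wild type and by -0.09, 0.13 and 0.02 in Zmpste24-/- lungs, and none passed. Over all 46 members the interaction test gave 0 calls by limma, against 0.316% of all genes, and 2 members had an unadjusted p under 0.05.

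Genotype was compared in baseline and in ventilated lungs. These comparisons share their groups with the ventilation comparisons, so their values are set side by side and not counted as separate evidence. At baseline 3 members passed (6.52%, against 6.31% of all genes and 10.6% of those at or over the median level): Psmb9 was lower and Psme1 and Psmg1 were higher in Zmpste24-/- lungs. After ventilation 2 members passed (4.35%, against 10.8% and 17.2%), Psmb9 and Psmb10, both lower in Zmpste24-/- lungs. Among the members at or over the median level 7.14% were called at baseline and 4.76% after ventilation. Higher and lower calls made up 2.2% and 4.11% of all genes at baseline and 4.72% and 6.08% after ventilation. Leaving out 1 array moved these counts: at baseline to 1 without wild type array 1 and to 0 without wild type array 2 or Zmpste24-/- array 1 or 3, and after ventilation to 4 without wild type array 1 and to 1 without wild type array 2 or 3 or Zmpste24-/- array 2 or 3. With quantile normalization 6 members were higher and 1 lower at baseline, and with array medians subtracted 1 was higher and 2 lower after ventilation. The median over the members was 0.09 at baseline and 0.10 after ventilation, against -0.01 and 0.01 over all genes.

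**Figure D4:**
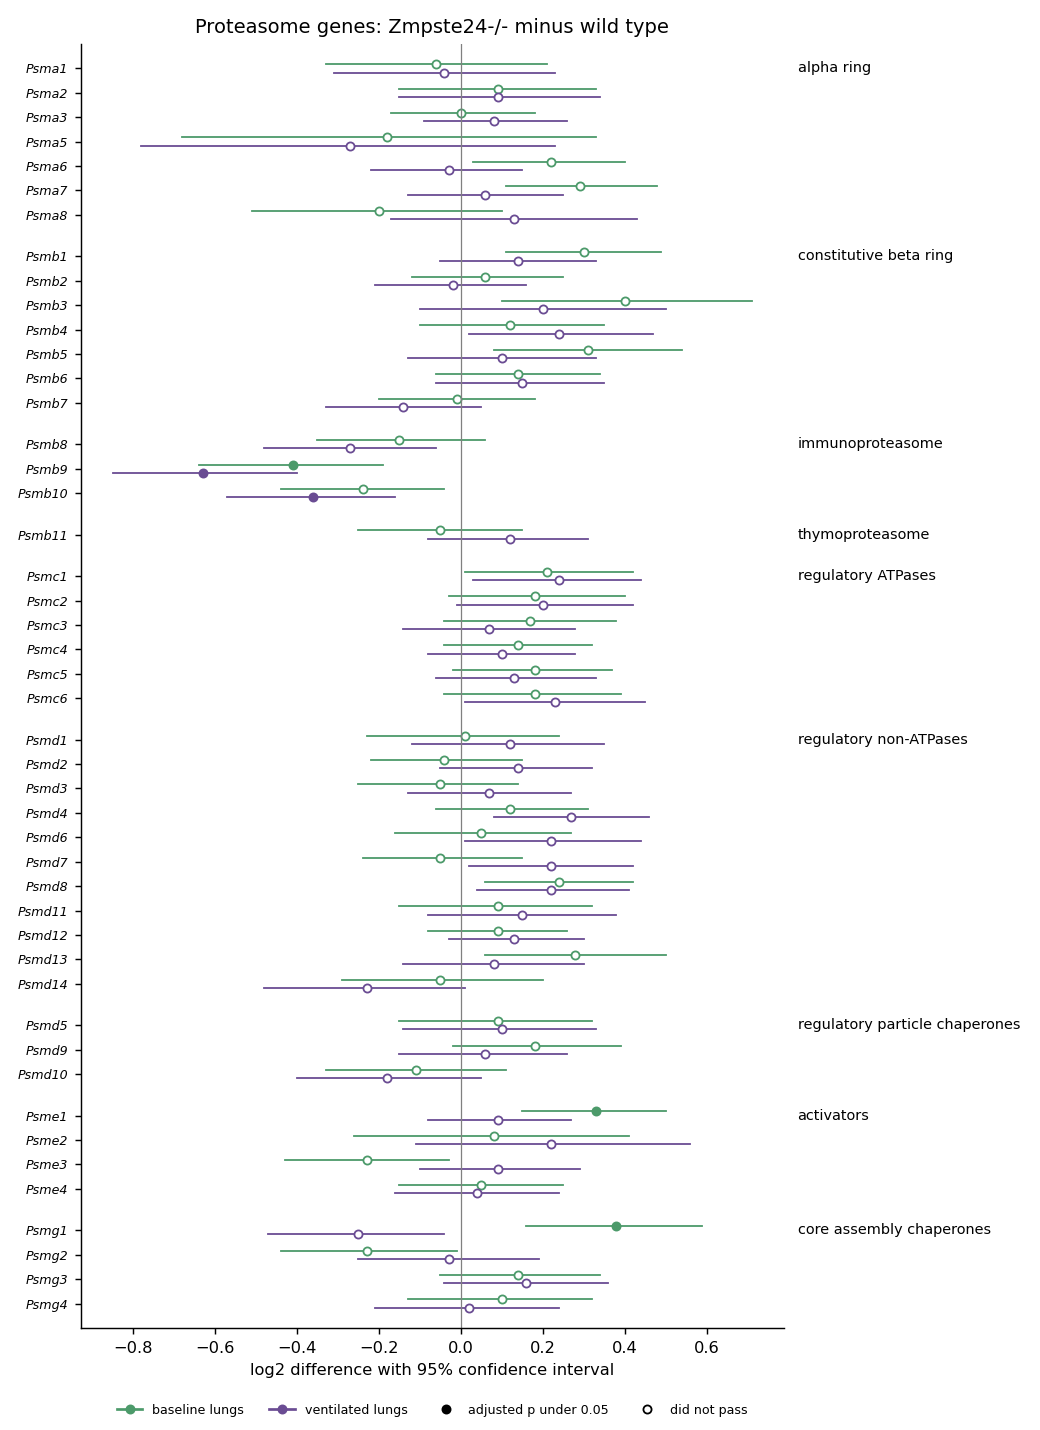
Log2 difference, Zmpste24-/- minus wild type, of each of the 46 proteasome genes by role, with its 95% confidence interval from limma, in baseline and in ventilated lungs (3 arrays per group). The filled points, which passed an adjusted p of 0.05, are Psmb9, Psme1 and Psmg1 at baseline and Psmb9 and Psmb10 after ventilation.

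Psmb9 was lower in Zmpste24-/- lungs by 0.41 at baseline (log2 difference -0.41 ± 0.10, limma adjusted p = 0.0313), with no overlap between 7.41 to 7.47 and 6.96 to 7.09. The baseline call ended without any single array of those groups (limma adjusted p 0.0649 to 0.0941). After ventilation the difference was -0.63 ± 0.10 (limma adjusted p = 0.00218), between 6.81 to 7.13 and 6.13 to 6.47, and held without any single array. Psmb10 differed by -0.24 ± 0.09 at baseline (limma adjusted p = 0.158) and by -0.36 ± 0.09 after ventilation (limma adjusted p = 0.0233), and the latter call ended without wild type ventilated array 2 or 3 or Zmpste24-/- ventilated array 2 or 3 (0.0943, 0.0711, 0.0618 and 0.102). Psmb8 differed by -0.15 ± 0.10 and -0.27 ± 0.10, and neither passed (limma adjusted p 0.435 and 0.0985). Against their constitutive partners the group means of the 3 genes were lower in Zmpste24-/- lungs in each condition. Psmb9 minus Psmb6 differed by -0.55 at baseline and -0.78 after ventilation, Psmb8 minus Psmb5 by -0.46 and -0.37, and Psmb10 minus Psmb7 by -0.23 in each. Psmb8 itself differed by -0.15 at baseline, so most of that pair's difference lay in Psmb5, whose mean was higher in Zmpste24-/- lungs. For Psmb10 minus Psmb7 the ventilated groups overlapped, at -1.14, -1.04 and -1.31 in wild type and -1.24, -1.30 and -1.63 in Zmpste24-/- lungs. The exact two-sided permutation test shuffled genotype within condition and took the mean over both conditions, so it does not test each condition alone. For the Psmb9, Psmb8 and Psmb10 pairs this permutation test gave p = 0.005, 0.005 and 0.015, or 0.006, 0.006 and 0.015 after adjustment over the 6 tests. With quantile normalization the Psmb10 pair differed by -0.18 and its adjusted exact p was 0.06.

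None of the 14 core genes, the dim Psma5 and Psma8 among them, and none of the 17 regulatory particle subunits passed in either genotype comparison. Their estimates nevertheless leaned upwards, with medians of 0.11 and 0.12 at baseline and 0.09 and 0.14 after ventilation. That absence of calls depended on the setting: with quantile normalization Psma6, Psma7, Psmb1 and Psmb5 were called higher at baseline (limma adjusted p 0.0422, 0.0281, 0.0452 and 0.0472), and with genes under the median level left out Psma7 and Psmb1 were (0.0419 and 0.0404). Psmb1 also passed with limma's trend and robust options (0.0485), Psmb5 without wild type baseline array 3 (0.0483) and Psmd13 without wild type baseline array 1 (0.0441). After ventilation Psmd4 was called higher with array medians subtracted, with genes under the median level left out or without wild type ventilated array 1 (0.0272, 0.0439 and 0.0337), and Psmc2 with the mean of its probes (0.025). Psmb1, a non-catalytic beta subunit, had the smallest adjusted p among them at baseline, with 9.16, 9.24 and 9.04 in wild type and 9.50, 9.40 and 9.44 in Zmpste24-/- lungs (0.30 ± 0.09, limma adjusted p = 0.0631). Psme1 was higher in Zmpste24-/- lungs at baseline by 0.33 ± 0.08 (limma adjusted p = 0.0289), with all 3 arrays above the wild type ones. After ventilation, when Psme1 had fallen in Zmpste24-/- lungs, the difference was 0.09 ± 0.08 (limma adjusted p = 0.534). The baseline call ended without wild type baseline array 1 or 2 or Zmpste24-/- baseline array 1 or 3 (0.0933, 0.0516, 0.0996 and 0.0735), and with the 2 compared groups fitted alone (0.0751). Psmg1 was higher at baseline by 0.38 ± 0.10 (limma adjusted p = 0.037) and lower after ventilation by an amount that did not pass (-0.25 ± 0.10, limma adjusted p = 0.12). Its baseline call ended without wild type baseline array 1 or 2 or Zmpste24-/- baseline array 1 or 3 (0.0989, 0.109, 0.126 and 0.0608), with the replicate number as a block (0.06), with the 2 compared groups fitted alone (0.0919) and with limma's trend and robust options (0.0501).

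Genes that work with the proteasome were followed as lists. Of 16 partners and factors outside the symbol rule, such as ubiquitin-chain editing enzymes and adaptors, 13 were measured. Ventilation raised 2 of them in wild type and 5 in Zmpste24-/- lungs and lowered none, with medians of 0.11 and 0.26. These are 15.4% and 38.5% of the list, against 3.67% and 8.89% of all genes called higher, or 6.12% and 15.9% of those at or over the median level. The wild type count was 1 when baseline array 3 or ventilated array 2 was left out. Zfand5, an activator of the 26S proteasome, rose by 0.62 ± 0.09 (limma adjusted p = 0.00142) in wild type and by 1.10 ± 0.09 (limma adjusted p = 6.85e-06) in Zmpste24-/- lungs. Zfand2a (AIRAP), a proteasome-binding stress protein, read 8.03, 8.28 and 8.01 at baseline and 8.40, 8.42 and 8.52 after ventilation in wild type lungs, a difference of 0.34 ± 0.10 that did not pass (limma adjusted p = 0.0596). It rose in Zmpste24-/- lungs from 7.98, 8.12 and 7.85 to 9.04, 8.97 and 9.19, by 1.08 ± 0.10 (limma adjusted p = 1.2e-05). Its response differed between genotypes by 0.74 ± 0.14 (limma adjusted p = 0.0468), a call that ended without 11 of the 12 arrays, each left out in turn, all except wild type baseline array 1 (limma adjusted p 0.0574 to 0.123). It also ended with the replicate number as a block (0.0672) and with quantile normalization (0.0756). Txnl1, a thioredoxin-like protein bound to the regulatory particle, rose in both genotypes (0.45 ± 0.10, limma adjusted p = 0.0172, and 0.56 ± 0.10, limma adjusted p = 0.00217), and the wild type call ended without baseline array 3 or ventilated array 2 (0.0632 and 0.0538) and with the 2 compared groups fitted alone (0.0611). Usp14, the deubiquitinase that trims chains at the proteasome, rose in Zmpste24-/- lungs (0.62 ± 0.13, limma adjusted p = 0.00507). Nfe2l1, the transcription factor that induces subunit genes when proteasome activity is short, did not pass in any comparison, at 0.24 ± 0.08 (limma adjusted p = 0.0833) in wild type and 0.18 ± 0.08 (limma adjusted p = 0.144) in Zmpste24-/- lungs.

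Of 15 genes of ubiquitin and its delivery, 9 were measured. Ventilation raised 2 in wild type and 6 in Zmpste24-/- lungs and lowered none, with medians of 0.14 and 0.34. The shares called higher were 22.2% and 66.7%, against 3.67% and 8.89% of all genes and 6.12% and 15.9% of those at or over the median level. Without Zmpste24-/- baseline array 2 the Zmpste24-/- count was 3. Sqstm1 (p62), a receptor that carries ubiquitinated cargo, read 10.18, 10.20 and 10.18 at baseline and 10.90, 10.61 and 10.85 after ventilation in wild type lungs (0.60 ± 0.09, limma adjusted p = 0.00122). In Zmpste24-/- lungs it rose from 10.30, 10.29 and 10.21 to 11.14, 11.31 and 11.13 (0.93 ± 0.09, limma adjusted p = 1.46e-05), and these ventilated arrays were the highest of the 12. Nploc4, a cofactor of the Vcp segregase, rose in both (0.39 ± 0.09, limma adjusted p = 0.0186, and 0.56 ± 0.09, limma adjusted p = 0.000862). Its wild type call ended without wild type baseline array 1 or 3 or ventilated array 1 or 3 (0.0544, 0.0544, 0.0522 and 0.0827). Uba6, a ubiquitin-activating enzyme, rose in Zmpste24-/- lungs by 0.72 ± 0.13 (limma adjusted p = 0.00145) and differed by 0.10 ± 0.13 in wild type lungs. Neither list gave a call between genotypes at baseline. In ventilated lungs Zfand2a (0.62 ± 0.10, limma adjusted p = 0.00185), Sqstm1 (0.41 ± 0.09, 0.00987), Ubqln1 (0.38 ± 0.08, 0.00852) and Ubqln2 (0.47 ± 0.09, 0.0043) were higher in Zmpste24-/- than in wild type, the last pair being ubiquilins, which shuttle ubiquitinated proteins. The call for Sqstm1 did not hold with quantile normalization (limma adjusted p = 0.0614).

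Class I antigen presentation, which uses the peptides made by the immunoproteasome, was represented by 12 of 14 listed genes. After ventilation 1 was lower in wild type lungs, and 3 were lower and 1 higher in Zmpste24-/- lungs. The shares lower, 8.33% and 25%, compare with 3.53% and 7.52% of all genes and with 6.01% and 12.6% of those at or over the median level, so the wild type share is near the latter. Between genotypes 3 were lower at baseline and 5 after ventilation in Zmpste24-/- lungs, with none higher, and medians of -0.21 and -0.19. These are 25% and 41.7% of the list, against 4.11% and 6.08% of all genes called lower and 6.94% and 9.4% of those at or over the median level. The counts lower with ventilation lay at 0 to 1 and 1 to 3 when 1 array was left out, and those between genotypes at 2 to 3 and 3 to 5. Tap1, the divergent neighbour of Psmb9, read 8.91, 8.70 and 8.62 in wild type baseline, 8.43, 8.50 and 8.54 in wild type ventilated, 8.18, 8.27 and 7.96 in Zmpste24-/- baseline and 7.45, 7.80 and 7.69 in Zmpste24-/- ventilated lungs. The wild type groups did not overlap, but the difference of -0.26 ± 0.11 did not pass (limma adjusted p = 0.215). It fell with ventilation in Zmpste24-/- lungs (-0.49 ± 0.11, limma adjusted p = 0.00855) and was lower in Zmpste24-/- lungs at baseline (-0.61 ± 0.11, limma adjusted p = 0.00657) and after ventilation (-0.84 ± 0.11, limma adjusted p = 0.000572). Nlrc5, the transactivator of class I genes, was lower in the same 3 comparisons, by -0.50 ± 0.14 (limma adjusted p = 0.0258), -0.73 ± 0.14 (0.00889) and -0.98 ± 0.14 (0.000933). The first of these ended without Zmpste24-/- baseline array 1 or 2 or ventilated array 1 (limma adjusted p 0.0976, 0.0591 and 0.109). Irf1, an interferon-induced transcription factor, was the listed gene that rose in Zmpste24-/- lungs (0.50 ± 0.11, limma adjusted p = 0.00548).

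Tapbp (tapasin) was called lower with ventilation in wild type lungs (-0.29 ± 0.08, limma adjusted p = 0.0364) and in Zmpste24-/- baseline lungs (-0.34 ± 0.08, limma adjusted p = 0.0179). The first ended without any 1 of 8 arrays (0.0506 to 0.111), wild type baseline array 2 among them (0.109), and the second without wild type baseline array 2 or 3 or Zmpste24-/- baseline array 3 (0.0609, 0.0526 and 0.0718). With the mean of its 2 probes neither held (limma adjusted p 0.558 and 0.872), so the probes disagree. Tap2 was lower in ventilated Zmpste24-/- lungs than in ventilated wild type lungs (-0.50 ± 0.10, limma adjusted p = 0.00716). Its decrease with ventilation in Zmpste24-/- lungs (-0.33 ± 0.10, limma adjusted p = 0.0414) ended without any 1 of Zmpste24-/- baseline arrays 1, 2 and 3, Zmpste24-/- ventilated arrays 1 and 3, wild type baseline array 2 and wild type ventilated array 2 (0.05 to 0.158). That call also ended with array medians subtracted (limma adjusted p = 0.0865) and with the replicate number as a block (0.057). Erap1, the aminopeptidase that trims peptides for class I, was lower in ventilated Zmpste24-/- lungs (-0.51 ± 0.12, limma adjusted p = 0.0172), with limma adjusted p of 0.0782, 0.0791, 0.0503 and 0.0549 without wild type ventilated array 2 or 3 or Zmpste24-/- ventilated array 1 or 2. The immune cell sums given above also differed between these groups, and their part in these differences was not tested.

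**Figure D5:**
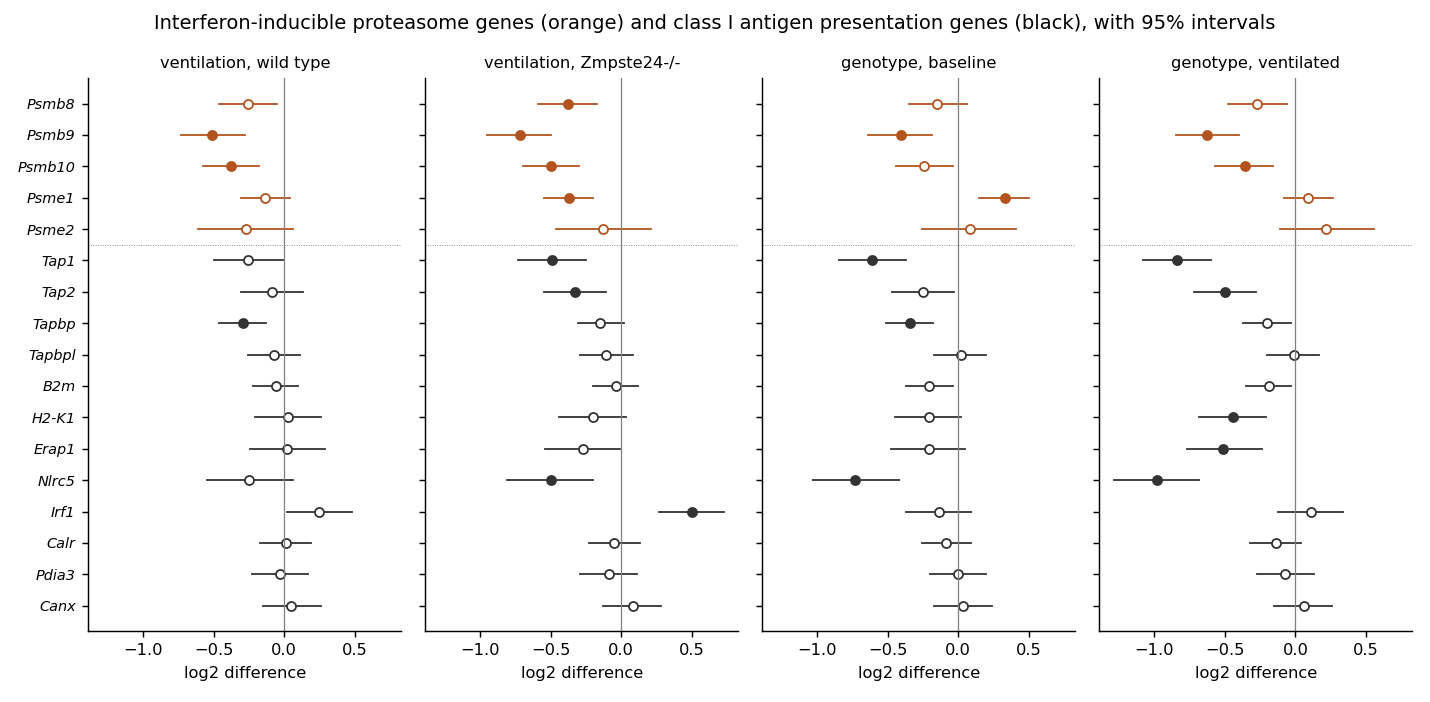
Log2 difference with its 95% confidence interval from limma, in the 4 pairwise comparisons (3 arrays per group), of the interferon-inducible proteasome genes Psmb8, Psmb9, Psmb10, Psme1 and Psme2 (orange) and of the 12 measured genes of class I antigen presentation (black). Filled points passed an adjusted p of 0.05: Psmb9 did so in all 4 panels, from -0.41 to -0.72, and Tap1 in 3 of them, from -0.49 to -0.84.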

How the data were processed

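One array per mouse was hybridised with whole-lung RNA. Per the labels' protocols, 100 ng was used for labelling. The authors deposited their normalized values, which lie in the range of a log2 scale. The submitters' processing notes name RMA and limma without versions. No further normalization was applied here. The probes' genome build, scan dates and slides were not known, so array batches were not tested. Samples were grouped by their labels.

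In the platform annotation 23521 of the 41345 probes had 1 gene symbol, 1814 had several and 16010 had none. The 1-symbol probe with the highest mean stood for each gene, giving 22180 genes. All 46 member symbols were those of RefSeq. In limma 3.58.1 (R 4.3.3, lmFit and eBayes) the 12 arrays were fitted together, with a mean for each group and 8 residual degrees of freedom. Benjamini-Hochberg adjustment ran over all genes within each of 5 contrasts, and the threshold was 0.05. The fit was tested on simulated data. Between 3 and 3 arrays, exact permutation cannot reach a p below 0.1 for any single gene, so gene calls rest on limma's variance model. The limma p-values set a difference of group means against the spread between mice within groups, pooled over the 4 groups and moderated across genes. Figures used matplotlib 3.10.9.

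The members, pathway lists, marker lists and tests were chosen with earlier results of these data known. Members that passed in any contrast are described with single-array values. Other genes of the pathway lists are named where they passed, at most 4 per list and contrast by smallest adjusted p, with Nfe2l1 always given. The alternatives were 2 filters on low values (the 25th percentile and the median), subtracted array medians, quantile normalization, the 2 compared groups alone, a replicate block, the mean of all probes of a gene, limma's trend and robust options, and each array left out in turn.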

Additional observations from a re-analysis of the deposited data

Results flagged for a closer look

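The response of Zfand2a to ventilation differed between genotypes by 0.74 on the log2 scale by limma's interaction test (adjusted p = 0.0468), from 0.34 in wild type to 1.08 in Zmpste24-/- lungs, with all 3 ventilated arrays above the baseline arrays in each genotype. The adjusted p was 0.0445 without wild type baseline array 1 and 0.0574 to 0.123 without any other single array, 0.0672 with a replicate block and 0.0756 with quantile normalization.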

How the results depend on the processing

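Of 4529 values of single members under the alternatives, 4262 kept their direction and their side of the threshold, 69 lost a call, 26 gained one and 0 called values changed sign, while 172 uncalled values moved across 0. Most of the 4529 values belong to tests that were not called, so the share kept does not measure how stable the calls are. Of the 69 lost calls, 54 were lost when 1 array was left out. With the 2 compared groups alone, the count of proteasome genes called was 4 instead of 7 for ventilation in wild type lungs and 1 instead of 3 for genotype at baseline, where all genes called numbered 923 and 953 instead of 1597 and 1399. With genes under the median left out it was 5 for genotype at baseline and 1 for the interaction (Psmg1), and with quantile normalization it was 7 for genotype at baseline. The change of Psmb10 minus Psmb7 with genotype was -0.18 with quantile normalization (adjusted exact permutation p = 0.06). Leaving out 1 array gave 3 to 7 calls for ventilation in wild type lungs, 8 to 14 in Zmpste24-/- lungs, 0 to 3 for genotype at baseline, 1 to 4 after ventilation and 0 for the interaction. With a replicate block the counts were 6, 11, 2, 2 and 0 in the same order. The replicate numbers gave no sign of pairing: same-numbered arrays of different groups had correlations of -0.152 to 0.153 in their deviations from the group means, with 2 of 18 pairs over 0.1. Among arrays with different numbers 7 of 36 pairs were over 0.1. Such correlations cannot show whether same-numbered mice were related or handled together. The cause of these shifts was not tested. Small differences, such as those of most core subunits, are at the limit of what 3 arrays per group can call, and the 4 members under the median level were read from dim probes.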
